A study of Mus musculus with 8 samples.

Results

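The genes described here are the nuclear-encoded subunits of respiratory complexes II, III, IV and V, together with cytochrome c, the electron carrier between complexes III and IV. They were chosen by name, and 41 of the 45706 genes in the table carry the listed symbols: 4 of complex II, 9 of complex III, cytochrome c, 13 of complex IV and 14 of complex V. RNA sequencing of whole hearts from 8-week-old male mice measured them in 3 groups of different genotype. The conditional knockout (cKO, n = 4) had the genotype Elmsan1 fl/fl;aMHC-Cre+/-, in which the aMHC (Myh6) promoter, active in cardiomyocytes, drives Cre recombinase, and both copies of Elmsan1, which encodes a MiDAC component, part of a histone deacetylase complex, are floxed. One control group (Cre, n = 2) was aMHC-Cre+/- without floxed alleles, and the other (floxed, n = 2) was Elmsan1 fl/fl without Cre. The sources used here do not give the floxed exons, the strain or how many animals lie behind each library, so the p-values reflect the spread among these libraries. The comparison addresses how loss of Elmsan1 in cardiomyocytes changes the heart's transcripts.

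Complex II, succinate dehydrogenase, passes electrons from the citric acid cycle to ubiquinone. Complex III passes them on to cytochrome c, complex IV uses them to reduce oxygen, and the proton gradient built on the way drives ATP synthesis by complex V. A few large subunits carry the catalytic sites, many small subunits surround them, and complexes III, IV and V also need subunits made from mitochondrial DNA. In the heart, which runs mostly on oxidative metabolism, these transcripts are among the most abundant, and complex IV uses muscle-specific isoforms of some small subunits.

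The libraries held 17509564 to 25833259 estimated counts, and every one of the 41 genes had at least 1400 in each library. Levels are given as CPM, counts scaled to library size, after TMM normalization (trimmed mean of M values), and differences as log2 fold changes with their standard error (SE). Elmsan1 itself was at 12 to 15.5 CPM in cKO hearts and 25.25 to 28.6 CPM in control hearts (log2 fold change -0.89, SE 0.11; edgeR quasi-likelihood F-test, Benjamini-Hochberg adjusted p = 8.94e-05). Whole heart also holds cells in which the promoter is silent. The cardiomyocyte markers were abundant in all 8 libraries, as the tissue label says, with a summed level of 44710 to 53127 CPM in cKO hearts and 53303 to 56933 CPM in control hearts. In such bulk samples, fewer cells of a type and less RNA per cell cannot be told apart.

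Scaled by TMM alone, most subunit genes of complexes II to V were higher in cKO hearts. Several that encode large subunits, and both membrane anchors of complex II, were lower. Against the mean of both control groups, 31 of the 41 genes rose and 5 fell at an adjusted p under 0.05, and 5 were not called. Among all 15289 genes tested 52.1% were called, 25.6% as higher and 26.5% as lower. The median log2 fold change of the 41 genes was 0.65, beside 0.04 over all genes. All 13 genes of complex IV rose (median 0.74), 11 of 14 rose in complex V (median 0.62), 6 of 9 in complex III (median 0.29) and 1 of 4 in complex II (median -0.43). The largest rises were those of Uqcrq, Uqcr11, Atp5e, Cox6a1, Cox7a2 and Cox5b, between 1.90-fold and 2.60-fold. The 5 falls were those of Sdha, Uqcrc2, Atp5a1, Sdhd and Sdhc, between 1.31-fold and 2.44-fold. The cKO and control values of these 36 called genes did not overlap, and neither did those of Atp5b, which was not called. Over all genes tested the share without overlap was 49.3%. With the length and GC offset described below, 9 of the 41 genes were called higher and 10 lower, and the median was -0.06. Of all genes 20.1% were then called higher and 24.0% lower. The offset turned negative 14 of the genes called higher without it.

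**Figure D1:**
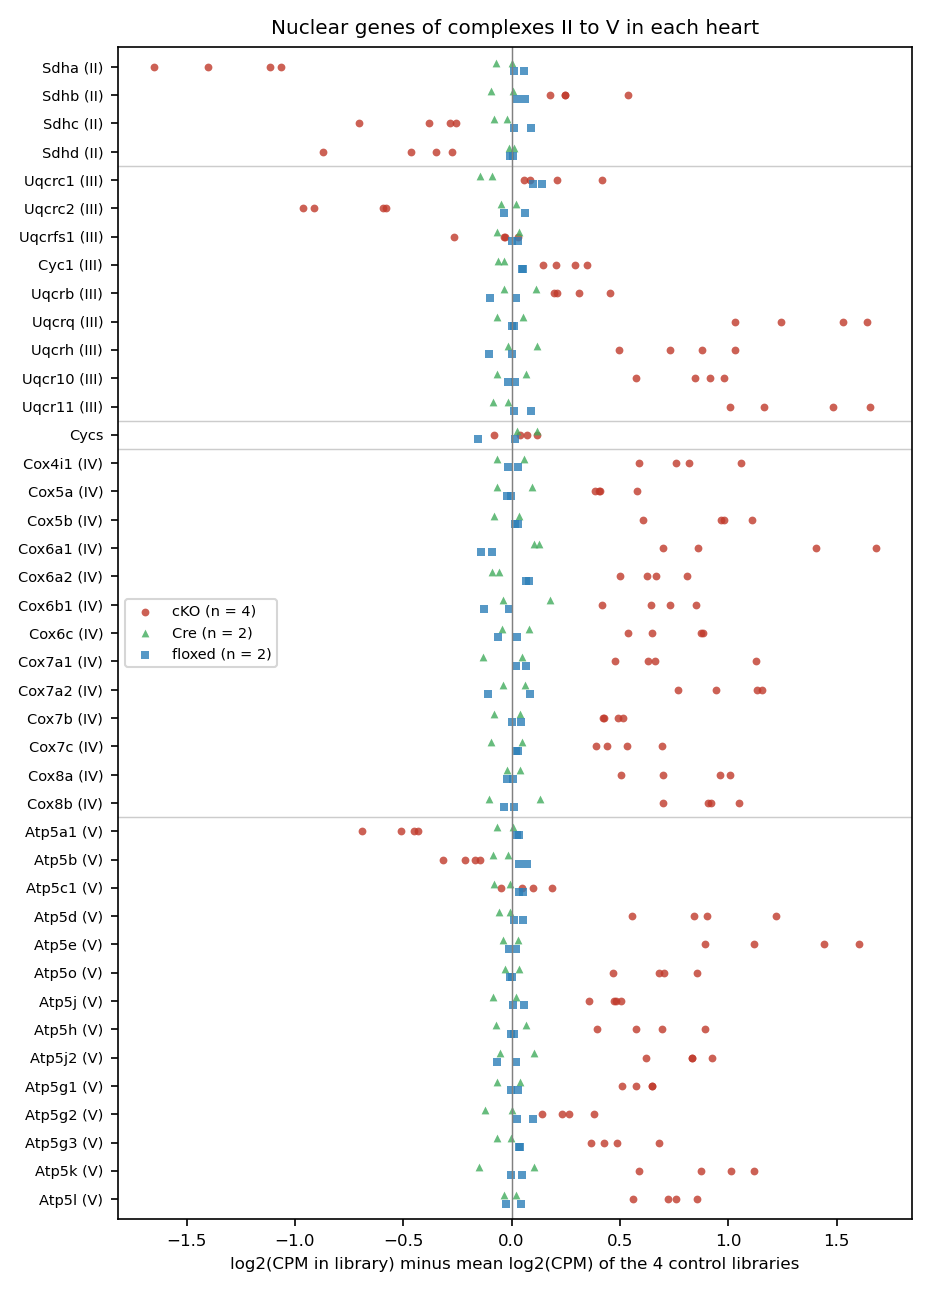
Level of each of the 41 genes in each heart, as log2 CPM minus the mean log2 CPM of the 4 control libraries, for cKO (circles), Cre (triangles) and floxed (squares) hearts; rows are grouped by complex. The cKO hearts lie to the right of the controls for all complex IV genes, with Cox6a1 reaching 1.68, and to the left for Sdha, where the lowest heart is at -1.65.

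Promoter sequences are shown for 5 of these genes: 1 that fell, the pair with the largest rises among the smallest proteins of complexes III and V, and the wide and muscle isoforms of 1 complex IV subunit. They come from RefSeq (GRCm38.p6) and are printed 5′ to 3′ on the gene's strand, ending just before the first annotated start of the gene. The Sdhd stretch was kept to 51 bases, short of the neighbouring gene's start at chr9:50603910. Capitals mark the letters CCGGAAG or their reverse complement, the core bound by ETS factors such as GABP, an activator of respiratory genes.
Sdhd, chr9:50603850-50603900, minus strand: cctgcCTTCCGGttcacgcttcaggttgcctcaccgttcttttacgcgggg
Uqcr11, chr10:80406831-80406971, minus strand: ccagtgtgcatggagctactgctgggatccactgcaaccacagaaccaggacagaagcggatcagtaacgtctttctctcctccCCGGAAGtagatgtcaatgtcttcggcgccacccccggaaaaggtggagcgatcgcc
Atp5e, chr2:174464106-174464251, minus strand: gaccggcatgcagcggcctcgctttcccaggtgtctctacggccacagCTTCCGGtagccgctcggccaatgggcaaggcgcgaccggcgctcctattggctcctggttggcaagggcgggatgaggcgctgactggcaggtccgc
Cox8a, chr19:7217617-7217766, minus strand: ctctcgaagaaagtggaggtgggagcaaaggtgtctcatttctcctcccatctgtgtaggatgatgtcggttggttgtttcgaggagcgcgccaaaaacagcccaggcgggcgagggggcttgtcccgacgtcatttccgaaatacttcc
Cox8b, chr7:140900447-140900596, minus strand: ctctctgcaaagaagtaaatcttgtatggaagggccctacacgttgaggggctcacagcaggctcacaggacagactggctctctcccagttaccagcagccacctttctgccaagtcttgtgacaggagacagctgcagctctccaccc

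The motif starts 46 bases before the RefSeq start in Sdhd, 66 in Uqcr11 and 102 in Atp5e. RefSeq promoter windows, which run from 250 bases before to 50 after the start, were found for 32 of the 41 genes. Either strand of CCGGAAG was present in 34.3% of their 35 windows and in 11.6% of the 21262 windows of all coding genes. By gene it was in 11 of 25 that rose, 1 of 2 that fell and 0 of 5 that were not called. The window of Cox8a holds it outside the stretch shown, and that of Cox8b does not hold it. The NRF1 palindrome, GCGCA followed by TGCGC, was in 11.4% of the 35 windows and 1.33% of all, the ERR core AAGGTCA in 14.3% and 4.08%, and the YY1 core AAGATGGC in 5.71% and 3.05%, each on either strand. In 0 of the 35 windows did sites of different motifs share a base, and a match describes the sequence alone.

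In complex II, 3 of the 4 genes fell in cKO hearts and the other rose. Sdha, which encodes the flavoprotein that oxidizes succinate, had 704, 468, 679 and 557 CPM in cKO hearts, 1397 and 1473 CPM in Cre hearts, and 1529 and 1482 CPM in floxed hearts. Every cKO value was under every control value, with cKO replicate 2 the lowest (log2 fold change -1.29, SE 0.13; 2.44-fold lower; edgeR quasi-likelihood F-test, Benjamini-Hochberg adjusted p = 3.64e-05). Sdhb, the iron-sulfur subunit that binds Sdha, had 649.9, 681, 680.0 and 832 CPM in cKO hearts, against 538 and 577 CPM in Cre and 584 and 598 CPM in floxed hearts. All cKO values were above all control values, cKO replicate 4 by the widest margin (log2 0.31, SE 0.10; edgeR adjusted p = 0.0247). This call was lost when any 1 of the 4 control libraries was left out, with edgeR adjusted p between 0.0640 and 0.0937. The ratio of Sdhb to Sdha counts was 0.924 to 1.49 in cKO hearts and 0.382 to 0.404 in control hearts. Their transcripts have 1142 and 2900 bases, and the ratio is not adjusted for length or GC content. With the length and GC offset described below Sdhb was at -0.21 and not called, and Sdha was at -1.15.

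Both membrane anchors of complex II fell. Sdhc had 325, 238.5, 318.5 and 298 CPM in cKO hearts, against 382 and 367 CPM in Cre and 391 and 413 CPM in floxed hearts (log2 -0.39, SE 0.11; edgeR quasi-likelihood F-test, Benjamini-Hochberg adjusted p = 0.0105). Sdhd had 267, 186, 280.4 and 246 CPM in cKO hearts, against 337 and 342.5 CPM in Cre and 338 and 342 CPM in floxed hearts (log2 -0.47, SE 0.12; edgeR adjusted p = 0.00782). The groups did not overlap in either gene, and cKO replicate 2 was the lowest in both. With libraries scaled by their totals alone neither was called (Sdhc -0.26 and Sdhd -0.34; edgeR adjusted p = 0.123 and 0.0712). Sdhd starts 98 bases from Timm8b, which is transcribed the other way and encodes a mitochondrial import chaperone. Timm8b, named for its position and outside the rule for named genes, had 68.0 ± 4.62 CPM in cKO and 54.6 ± 4.46 CPM in control hearts (SD, n = 4 each; log2 0.32, SE 0.09; edgeR adjusted p = 0.0110). That rise was not called without floxed replicate 1 (edgeR adjusted p = 0.0515) or Cre replicate 1 (0.0557), and Timm8b was at -0.33 with the length and GC offset described below.

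Complex III was divided by subunit size. All 5 small subunits rose, but with the length and GC offset described below only Uqcrq was still called higher, Uqcrb was called lower (-0.27, edgeR adjusted p = 0.0284) and Uqcr10 was at -0.16. Uqcrq, a small membrane subunit beside cytochrome b, had 905, 1277, 1051 and 1382 CPM in cKO hearts, against 424 and 460.1 CPM in Cre and 447 and 443 CPM in floxed hearts (log2 1.38, SE 0.13; 2.60-fold; edgeR quasi-likelihood F-test, Benjamini-Hochberg adjusted p = 3.02e-05). Uqcr11, the smallest complex III protein in this list, had 621, 864, 693 and 972 CPM in cKO hearts, against 292 and 306 CPM in Cre and 329.7 and 311 CPM in floxed hearts (log2 1.35, SE 0.14; edgeR adjusted p = 3.66e-05). In both genes each cKO heart was far above every control, and replicates 4 and 2 were the highest. Uqcr10 (log2 0.84), Uqcrh, the hinge protein at the cytochrome c1 side (0.80), and Uqcrb (0.29) rose less. Of the summed counts of Uqcr10 and a near-identical gene, that gene held 2.79 to 4.09% in cKO and 4.84 to 5.94% in control hearts. The Uqcrb call was lost without cKO replicate 3, floxed replicate 1 or Cre replicate 1, with edgeR adjusted p of 0.0654, 0.106 and 0.0881. Uqcrh starts 198 bases from the oppositely transcribed Lrrc41, which fell (log2 -0.34, SE 0.09; edgeR adjusted p = 0.0085), and Uqcr10 starts 336 bases from Zmat5, which rose (0.87, SE 0.11; edgeR adjusted p = 0.000121) and was at 0.06 and not called with the offset. Both neighbours were named for their position, and the Lrrc41 call was lost with library totals alone (-0.21, edgeR adjusted p = 0.146).

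Of the large core proteins of complex III, Uqcrc2 fell and Uqcrc1 was not called. Uqcrc2 had 482, 373, 486 and 386 CPM in cKO hearts, against 702 and 738 CPM in Cre and 710.1 and 759 CPM in floxed hearts (log2 -0.75, SE 0.11; 1.68-fold lower; edgeR quasi-likelihood F-test, Benjamini-Hochberg adjusted p = 0.000253). All 4 cKO hearts were under all controls. Uqcrc1 was at 1132 to 1453 CPM in cKO and 983 to 1201 CPM in control hearts, with overlapping groups (log2 0.20, SE 0.10; edgeR adjusted p = 0.129). It was called higher with upper-quartile scaling (log2 0.31, edgeR adjusted p = 0.0253) and with library totals alone (0.33, 0.0375), and lower with the length and GC offset (-0.27, 0.0250). The ratio of Uqcrc1 to Uqcrc2 counts was 2.35 to 3.76 in cKO hearts and 1.38 to 1.69 in control hearts. Their transcripts have a GC content of 57.5% and 44.4%, and the ratio is not adjusted for length or GC content. With the offset Uqcrc2 was at -0.73. Uqcrfs1, the Rieske iron-sulfur protein, overlapped between groups at 536 to 659 CPM in cKO and 616 to 660.5 CPM in control hearts (log2 -0.07, SE 0.09; edgeR adjusted p = 0.549).

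Of the cytochromes at the exit of complex III, Cyc1 rose by a small margin and Cycs was not called. Cyc1, cytochrome c1, had 778, 745, 860.3 and 828 CPM in cKO hearts, against 646 and 658 CPM in Cre and 697 and 700.4 CPM in floxed hearts (log2 0.25, SE 0.09; edgeR quasi-likelihood F-test, Benjamini-Hochberg adjusted p = 0.0325). The groups did not overlap, but the call was lost when cKO replicate 3 or any 1 of the 4 control libraries was left out, with edgeR adjusted p between 0.0862 and 0.116. Cycs, cytochrome c, had 814, 733, 840.3 and 795 CPM in cKO hearts, against 788 and 839 CPM in Cre and 696 and 782 CPM in floxed hearts. Its groups overlapped, with no call (log2 0.04, SE 0.09; edgeR adjusted p = 0.758). Hccs, the lyase that attaches heme to both cytochromes, fell (log2 -0.88, SE 0.13; edgeR adjusted p = 0.000249), with 28.0 ± 5.16 CPM in cKO and 51.3 ± 4.68 CPM in control hearts (SD, n = 4 each).

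Complex IV was the most even of the 4, with log2 fold changes between 0.45 and 1.22. The 7 supernumerary subunits without an isoform in the list rose by 0.45 to 0.93. Cox5b, a zinc-binding subunit on the matrix side, had 842, 1089, 1078 and 1193 CPM in cKO hearts, against 522 and 565 CPM in Cre and 564 and 558 CPM in floxed hearts (log2 0.93, SE 0.11; edgeR quasi-likelihood F-test, Benjamini-Hochberg adjusted p = 9.17e-05). Cox4i1, which takes part in regulation by adenine nucleotides, rose 1.76-fold, Cox6c 1.67-fold, Cox6b1 1.59-fold, Cox7c 1.43-fold, Cox7b 1.38-fold and Cox5a 1.36-fold. All cKO values were above all control values in each of these genes. With the transcript offset only Cox5b (0.53) and Cox6c (0.31) of the 7 were still called. Cox4i1 (-0.03), Cox5a (-0.09) and Cox7c (-0.06) were then negative.

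For subunits 6a, 7a and 8, a gene used in heart and skeletal muscle and a widely used gene encode alternative forms, and both forms rose in every pair. With the transcript offset only Cox7a2 of the 6 genes was still called (0.37), and Cox7a1 (-0.27), Cox8a (-0.21) and Cox8b (-0.16) were negative. Cox6a2, the muscle form, had 1617, 2003, 1818 and 1765 CPM in cKO hearts, against 1076 and 1099.8 CPM in Cre and 1209.8 and 1198 CPM in floxed hearts (log2 0.65, SE 0.10; edgeR quasi-likelihood F-test, Benjamini-Hochberg adjusted p = 0.000242). Cox6a1, the wide form, had 123, 137, 201 and 243 CPM in cKO hearts, against 81.4 and 82.9 CPM in Cre and 71.2 and 68.8 CPM in floxed hearts (log2 1.22, SE 0.20; edgeR adjusted p = 0.00103). Every cKO heart was above every control in both genes, but Cox6a1 was widely spread, with replicates 3 and 4 the highest. It stayed called without replicate 3 (log2 1.16, edgeR adjusted p = 0.00348) and without replicate 4 (log2 1.02, edgeR adjusted p = 0.00043).

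Cox7a1, the muscle form, had 583, 662, 648 and 915 CPM in cKO hearts, against 382 and 434 CPM in Cre and 438 and 424 CPM in floxed hearts (log2 0.74, SE 0.14; edgeR quasi-likelihood F-test, Benjamini-Hochberg adjusted p = 0.001). Cox7a2, the wide form, had 407, 524.5, 459 and 532 CPM in cKO hearts, against 233 and 249.5 CPM in Cre and 221 and 254 CPM in floxed hearts (log2 1.01, SE 0.11; edgeR adjusted p = 4.84e-05). Both pairs of groups were apart, and cKO replicate 4 was the highest in both genes. Cox8b, the muscle form, had 854.5, 995.5, 986 and 1088 CPM in cKO hearts, against 489.7 and 576 CPM in Cre and 531 and 514 CPM in floxed hearts (log2 0.90, SE 0.10; edgeR adjusted p = 6.56e-05). Cox8a, the wide form, had 132, 150.1, 180.2 and 186 CPM in cKO hearts, against 91.2 and 95 CPM in Cre and 91.3 and 92.95 CPM in floxed hearts (log2 0.81, SE 0.12; edgeR adjusted p = 0.000204). Here too no cKO heart fell within the controls.

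Per kilobase of transcript, the muscle forms were the more abundant in both groups. Cox6a2 was at 2648 CPM per kb and Cox6a1 at 308 CPM per kb in cKO hearts, against 1685 and 133 CPM per kb in control hearts. Cox7a1 and Cox7a2 were at 1786 and 729 CPM per kb in cKO, against 1068 and 363 CPM per kb in control hearts. Cox8b and Cox8a were at 2726 and 295 CPM per kb in cKO, against 1465 and 168 CPM per kb in control hearts. The log2 ratio of muscle to wide counts was 3.41 ± 0.47 in cKO and 3.92 ± 0.22 in control hearts for subunit 6a (SD, n = 4 each; difference -0.51; exact permutation of the labels, two-sided, 70 splits, p = 0.114, adjusted over 3 pairs 0.171). For subunit 7a it was 0.53 ± 0.18 in cKO and 0.81 ± 0.12 in control hearts (difference -0.28; exact permutation p = 0.0857, adjusted 0.171). For subunit 8 it was 2.61 ± 0.13 in cKO and 2.51 ± 0.08 in control hearts (difference 0.10; exact permutation p = 0.257, adjusted 0.257). For subunit 6a the 2 control groups, pooled in this test, differed from each other, with means of 4.11 in floxed and 3.73 in Cre hearts. The cKO difference was -0.7 against floxed and -0.322 against Cre. None of the 3 ratios passed the test, and the groups overlapped in all 3. The smallest p the test can give is 0.0286, and 1 pair alone at that p would not pass after adjustment.

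**Figure D2:**
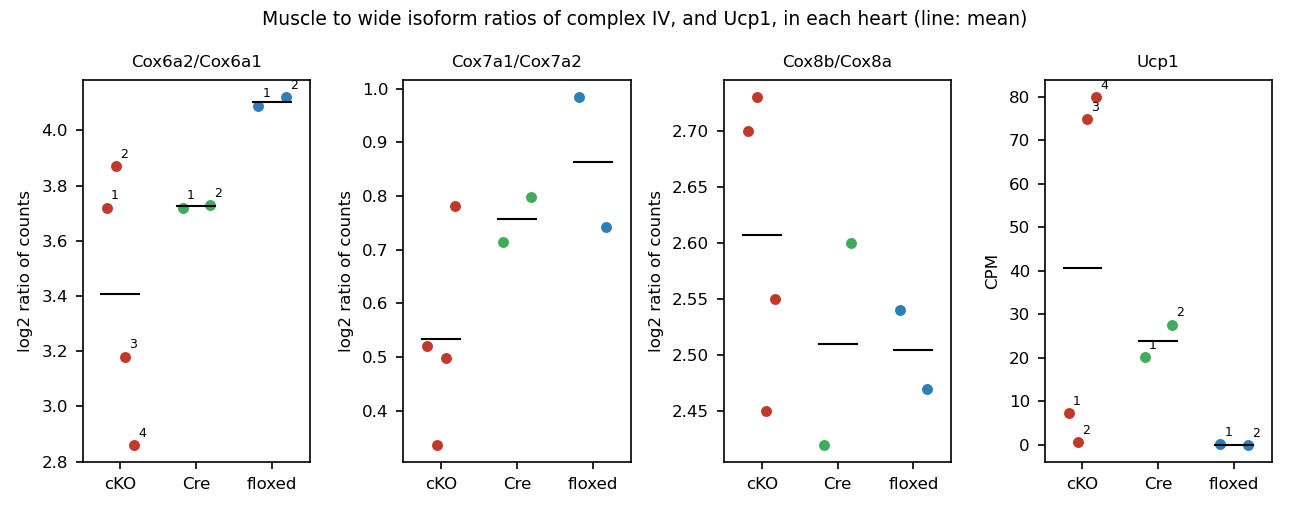
Log2 ratio of muscle to wide isoform counts in each heart for subunits 6a, 7a and 8 of complex IV, and CPM of the brown fat gene Ucp1, with lines at group means and replicate numbers in the outer panels. cKO replicates 3 and 4 have the lowest Cox6a2/Cox6a1 ratios, 3.18 and 2.86, and the highest Ucp1, 74.8 and 79.8 CPM.

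Markers of brown fat, a tissue that can lie near the heart and that also makes Cox7a1 and Cox8b, varied between the same libraries. Ucp1, the uncoupling protein that defines it, had 7.31, 0.692, 74.8 and 79.8 CPM in cKO hearts, 20.2 and 27.7 CPM in Cre hearts, and 0.214 and 0 CPM in floxed hearts. The summed level of 6 brown fat markers was 637 to 1329 CPM in cKO and 309 to 571 CPM in control hearts, and 1 of the 6 rose. That gene was Fabp4, which endothelial cells also make and which carries most of the sum, at 600.9 to 1162 CPM in cKO and 287 to 499 CPM in control hearts. In cKO replicate 2, which had the least Ucp1 of the cKO hearts, Fabp4 was at 831 CPM. In the same order Cox6a1 was at 123, 137, 201 and 243 CPM in cKO, 81.4 and 82.9 CPM in Cre and 71.2 and 68.8 CPM in floxed hearts. The part of brown fat in the Cox6a1 values was not tested.

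In complex V, the small and membrane subunits rose, while the large F1 subunits fell or were not called. Atp5e, the epsilon subunit of the central stalk, had 660.1, 966.5, 772 and 1079 CPM in cKO hearts, against 346 and 363.5 CPM in Cre and 353 and 361 CPM in floxed hearts (log2 1.29, SE 0.14; 2.44-fold; edgeR quasi-likelihood F-test, Benjamini-Hochberg adjusted p = 5.73e-05). Its partner in that stalk, Atp5d, rose 1.87-fold (log2 0.90, SE 0.13). Atp5a1, the alpha subunit of the catalytic head, had 2786, 2360.3, 2819.7 and 2674 CPM in cKO hearts, against 3639 and 3829.9 CPM in Cre and 3897 and 3877 CPM in floxed hearts (log2 -0.52, SE 0.10; edgeR adjusted p = 0.00119). In Atp5e every cKO heart was above the controls, replicates 4 and 2 the highest, and in Atp5a1 every cKO heart was below them, replicate 2 the lowest. Atp5b, the beta subunit that holds the catalytic sites, was at 3623 to 4084 CPM in cKO and 4252 to 4738 CPM in control hearts and did not pass the test (log2 -0.21, SE 0.09; edgeR adjusted p = 0.0796), though DESeq2 called it lower (-0.21, adjusted p = 0.0161). Atp5c1, the gamma subunit, overlapped between groups at 760.2 to 895.5 CPM in cKO and 744 to 815 CPM in control hearts (log2 0.07, SE 0.09; edgeR adjusted p = 0.514). The ratio of Atp5e to Atp5a1 counts was 0.237 to 0.409 in cKO hearts and 0.0905 to 0.0951 in control hearts. Their transcripts have 421 and 2471 bases, and the ratio is not adjusted for length or GC content. With the transcript offset Atp5e was at 0.31 and Atp5a1 at -0.50.

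The peripheral stalk, which keeps the head from turning, had all 3 of its genes in the list higher: Atp5o 1.61-fold (log2 0.68), Atp5h 1.57-fold (0.65) and Atp5j 1.37-fold (0.45). With the transcript offset none of the 3 was called higher, and Atp5j was called lower (-0.26, edgeR adjusted p = 0.0275). Atp5j shares 701 bases with the oppositely transcribed Gabpa, and without strand information reads of the overlap cannot be told apart. Gabpa fell (log2 -0.66) and held 836 counts on average, beside 11207 for Atp5j, and the part of the overlap in the Atp5j values was not tested. The 3 small membrane subunits Atp5k, Atp5j2 and Atp5l, which shape the dimer of the enzyme, rose 1.88-fold, 1.75-fold and 1.65-fold. With the transcript offset only Atp5j2 was still called higher (log2 0.42), while Atp5k (-0.07) and Atp5l (0.14) were not called.

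The c ring that turns in the membrane is made of 1 mature protein encoded by 3 genes, and all 3 rose, although Atp5g2 was called lower (-0.53) and Atp5g3 was at -0.04 with the transcript offset. Atp5g1 had 1445, 1514, 1590.0 and 1593 CPM in cKO hearts, against 970.4 and 1044 CPM in Cre and 1036 and 1015 CPM in floxed hearts (log2 0.60, SE 0.09; edgeR quasi-likelihood F-test, Benjamini-Hochberg adjusted p = 0.000251). Atp5g3 had 1303, 1359, 1414 and 1619.7 CPM in cKO hearts, against 965 and 1008 CPM in Cre and 1034 and 1037 CPM in floxed hearts (log2 0.49, SE 0.10; edgeR adjusted p = 0.00154). Atp5g2 had 249, 233, 275 and 254 CPM in cKO hearts, against 194 and 211 CPM in Cre and 226 and 215 CPM in floxed hearts (log2 0.26, SE 0.09; edgeR adjusted p = 0.0298). The groups did not overlap in any of the 3, with the narrowest gap in Atp5g2. Its call was lost when cKO replicate 3 or any 1 of the 4 control libraries was left out. Of the summed counts of Atp5g2 and its near-identical gene copies, the copies held 2.07 to 6.42% in cKO hearts and 1.46 to 1.96% in control hearts. Of the counts of the 3 genes, Atp5g1 made up 47.8 ± 1.29% in cKO and 45.4 ± 0.595% in control hearts, Atp5g3 44.3 ± 1.65% and 45.2 ± 0.52%, and Atp5g2 7.88 ± 0.542% and 9.45 ± 0.303% (SD, n = 4 each). The Atp5g2 share was lower in every cKO heart, at 7.33 to 8.38%, than in every control heart, at 9.13 to 9.85%, whereas the Atp5g1 and Atp5g3 shares overlapped.

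Set against each control group alone, the 41 genes gave similar counts. Against Cre hearts 30 rose and 4 fell, where 42.4% of all genes were called (19.6% higher, 22.8% lower), and against floxed hearts 28 rose and 5 fell, where 42.9% were called (19.8% higher, 23.1% lower). These comparisons share the cKO libraries. Sdhb, Cyc1 and Atp5g2 were called against Cre only and Uqcrb and Sdhc against floxed only, and no difference between the control groups passed the test in these genes. Between Cre and floxed hearts, 0 of the 41 genes passed edgeR's quasi-likelihood test, also at an unadjusted p under 0.05, and 0 passed with DESeq2 or limma voom. Over all 15289 genes 15 passed the adjusted test (0.0981%) and 526 had an unadjusted p under 0.05. The log2 differences of the 41 genes between Cre and floxed ran from -0.24 (Uqcrc1) to 0.23 (Cox6a1). The count against Cre was 18 higher and 3 lower without Cre replicate 1, and 25 higher and 2 lower without Cre replicate 2. That against floxed was 20 higher and 3 lower without floxed replicate 1, and 21 higher and 3 lower without floxed replicate 2.

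The fold changes ran with the length of the protein. Over the 41 genes Spearman's rho between log2 fold change and coding length was -0.71. For the length of the transcript it was -0.62 and for its GC content 0.45, as a description of genes that share libraries and scaling. Over 13744 coding genes the same values were -0.25, -0.41 and 0.35. Of the 16 genes with a coding sequence of up to 300 bases all 16 rose, beside 61.1% of all coding genes of that class. Of the 15 with more than 300 and up to 600 bases 12 rose and 2 fell, beside 44.6% and 13.7%. Of the 10 with more than 600 bases 3 rose and 3 fell, beside 22.5% and 30.6%. In the middle class Sdhd (477 coding bases) and Sdhc (507) fell where Cox4i1 (507) and Atp5d (504) rose, and their transcripts have 1231, 3171, 765 and 1410 bases in that order.

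**Figure D3:**
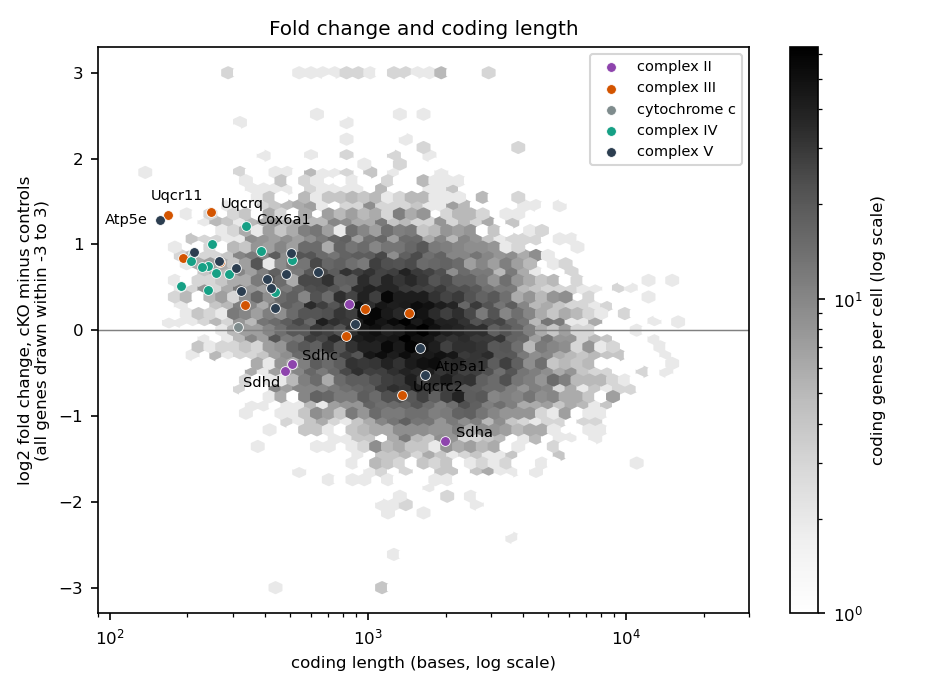
Log2 fold change (cKO minus controls) against coding length on a log axis for the 41 genes, coloured by complex, over all coding genes tested, shaded by their number. Atp5e and Uqcr11, with the shortest coding sequences, lie above 1, the other genes of up to 300 bases between 0.46 and 1.38, and the longest, Sdha, at -1.29.

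With an offset that removes from each library a smooth function of transcript length and GC content, 9 of the 41 genes were called higher and 10 lower, beside 44.0% of all genes called (20.1% higher, 24.0% lower), and the median was -0.06. With coding length in place of transcript length, an alternative chosen after seeing the data, 13 were called higher and 6 lower, beside 46.0% of all genes called (21.8% higher, 24.1% lower), and the median was 0.16. Against floxed hearts the 2 offsets left 7 and 12 genes higher and 7 and 6 lower, beside 34.6% of all genes (14.5% higher, 20.1% lower) and 36.5% (15.9% higher, 20.6% lower). Against Cre hearts they left 5 and 10 higher and 6 and 5 lower, beside 32.0% (13.3% higher, 18.7% lower) and 34.1% (14.6% higher, 19.5% lower). Genes called in the same direction with no offset and with both offsets were 7 that rose (Uqcrq, Cox5b, Cox6c, Cox7a2, Atp5e, Atp5j2 and Atp5g1) and 4 that fell (Sdha, Sdhd, Uqcrc2 and Atp5a1). With the transcript offset Uqcrq was at 1.20, Atp5g1 at 0.91 and Cox5b at 0.53, and Sdha was at -1.15, Uqcrc2 at -0.73, Sdhd at -0.72 and Atp5a1 at -0.50. The same offset left 3 of the 13 complex IV genes called (Cox5b, Cox7a2 at 0.37 and Cox6c at 0.31), and Atp5b (-0.34), Uqcrc1 (-0.27), Uqcrb (-0.27), Atp5j (-0.26), Uqcrfs1 (-0.25) and Atp5g2 (-0.53) were then called lower. The fold changes of 16 genes that were positive without the transcript offset were negative with it, 14 of them called higher without it, and 3 of these (Uqcrb, Atp5j and Atp5g2) were called in the opposite direction. With the coding-length offset 6 turned negative, and the cause of the length trend was not tested.

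**Figure D4:**
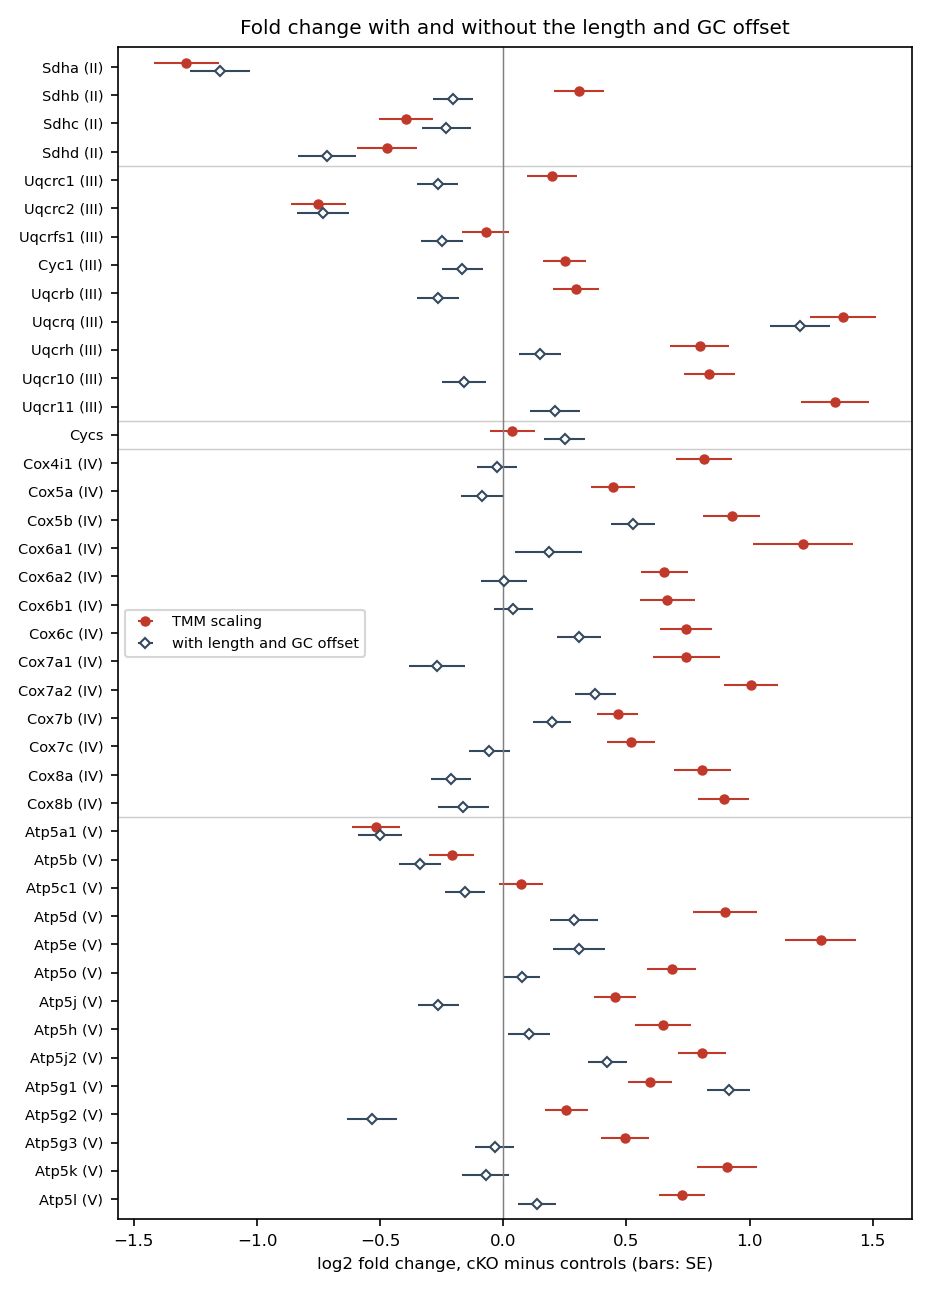
Log2 fold change (cKO minus controls) of each of the 41 genes with TMM scaling (filled circles) and with the transcript length and GC offset (open diamonds); bars are SE, and rows are grouped by complex. With the offset the complex IV genes lie between -0.27 and 0.53, while Uqcrq stays at 1.20 and Sdha at -1.15.

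The cKO hearts were unequal among themselves. Replicate 4 was the highest cKO heart for 26 of the 41 genes and replicate 1 the lowest for 29, while replicate 2 was the lowest for 12, among them Sdha and Sdhd. The median difference of the 41 genes from the control mean was 0.43, 0.64, 0.63 and 0.69 on the log2 scale in cKO replicates 1 to 4. Atrial markers, of which 6 of 6 rose, summed to 4572 to 10138 CPM in cKO and 1716 to 3165 CPM in control hearts. Endothelial markers (5 rose and 1 fell of 7) summed to 1000 to 1263 and 720 to 805 CPM, macrophage markers (5 rose of 7) to 283 to 383 and 183 to 229 CPM, and fibroblast markers (1 rose of 7) to 893 to 1160 and 679 to 923 CPM, cKO before controls. Of 8 cardiomyocyte markers 2 rose and 3 fell, and over all genes tested 25.6% were called higher and 26.5% lower. Smooth muscle and red blood cell markers were not called. Skeletal muscle markers (2 rose of 7, 2 not tested) summed to 4.52 to 7.06 CPM in cKO and 2.85 to 4.37 CPM in control hearts, with Myh4 at 0. The part of any of these cell types in the subunit values was not tested.

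Other nuclear subunits of the same complexes are encoded outside the 41. Of 10 such genes 7 were expressed enough to be tested, 5 rose and none fell (median 0.52), namely Cox4i2, the oxygen-sensitive form of Cox4i1 (log2 1.05), Atp5mpl (0.97), Ndufa4, a subunit once assigned to complex I (0.71), Cox7a2l, which joins complexes III and IV (0.52), and Atp5md (0.35), the last named outside the rule. Cox6b2 (0.22, SE 0.32; edgeR adjusted p = 0.586) and Atp5pb (-0.05, SE 0.09; edgeR adjusted p = 0.641) were not called and are also named outside the rule. With the transcript offset 1 of the 5 was called. Of 36 complex I subunit genes 29 rose and 2 fell (median 0.72), beside 25.6% of all genes called higher and 26.5% lower. All 76 cytosolic ribosomal protein genes rose (median 0.90). With the offset the counts were 16 and 5 for complex I and 57 and 1 for ribosomal proteins. Of all genes 20.1% were then called higher and 24.0% lower.

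Genes that assemble the complexes moved in both directions, and over all genes tested 25.6% were called higher and 26.5% lower. For complex II, Sdhaf2, which attaches the flavin to Sdha, fell (log2 -0.46, SE 0.09), as did Sdhaf3 (-0.37, SE 0.13), an iron-sulfur maturation factor. Sdhaf1, which serves the same clusters of Sdhb, rose (0.46, SE 0.10), and Sdhaf4 (0.06, SE 0.12) was not called. The Sdhaf3 call (edgeR adjusted p = 0.039) was lost when any library other than cKO replicate 1 was left out. For complex III, Lyrm7, which guides the Rieske protein, Uqcc1, an early factor for cytochrome b, and Ttc19, which clears Rieske fragments, fell by 0.73, 0.70 and 0.69. Uqcc3 and Uqcc2, the partners of Uqcc1, rose by 1.27 and 0.93, but Uqcc2 was at -0.14 with the transcript offset. Bcs1l, the chaperone that inserts the Rieske protein, was not called (-0.22, SE 0.09; edgeR adjusted p = 0.0574), although it was without cKO replicate 1 (adjusted p = 0.0455), with the controls pooled (0.0450) and with the offset (-0.34).

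For complex IV 13 of 26 assembly genes rose and 9 fell (median 0.25), beside 25.6% and 26.5% of all genes tested. Taco1, which activates translation of the mitochondrial subunit mt-Co1, had 10.4, 4.55, 6.94 and 4.42 CPM in cKO hearts, against 33.2 and 37.3 CPM in Cre and 34.7 and 39.2 CPM in floxed hearts. Every cKO heart was far under the controls (log2 -2.47, SE 0.26; 5.54-fold lower; edgeR quasi-likelihood F-test, Benjamini-Hochberg adjusted p = 0.000103). Cox15, which makes heme a, fell 2.37-fold (log2 -1.24), Lrpprc, which stabilizes mitochondrial messengers, 2.37-fold (-1.24), and Coa5 2.09-fold (-1.06). Among the rises were the copper chaperone Cox17 (log2 0.84), Cox19 (0.67), and Coa3 and Cox14 (0.66 and 0.56), which hold newly made mt-Co1. Neither Coa3 (0.08) nor Cox14 (-0.15) was called with the transcript offset. With the transcript offset 6 rose and 12 fell in this list, beside 20.1% and 24.0% of all genes. Taco1 (-2.81), Cox15 (-0.93), Lrpprc (-0.96) and Coa5 (-0.79) were still called lower with it. For ATP synthase, Atpaf1, which assists the beta subunit, fell (log2 -0.97, SE 0.18), and so did Tmem70, which assists the c ring (-0.53, SE 0.09). Atpaf2 (-0.21) and Dmac2l (-0.29) also fell, at edgeR adjusted p of 0.0455 and 0.0471. The Atpaf2 call was lost without any 1 of the 8 libraries, and that of Dmac2l without cKO replicate 1, 3 or 4, floxed replicate 1 or 2, or Cre replicate 2. Atp5if1, the inhibitor of the enzyme, rose (0.74, SE 0.10), and was at -0.03 with the transcript offset.

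**Figure D5:**
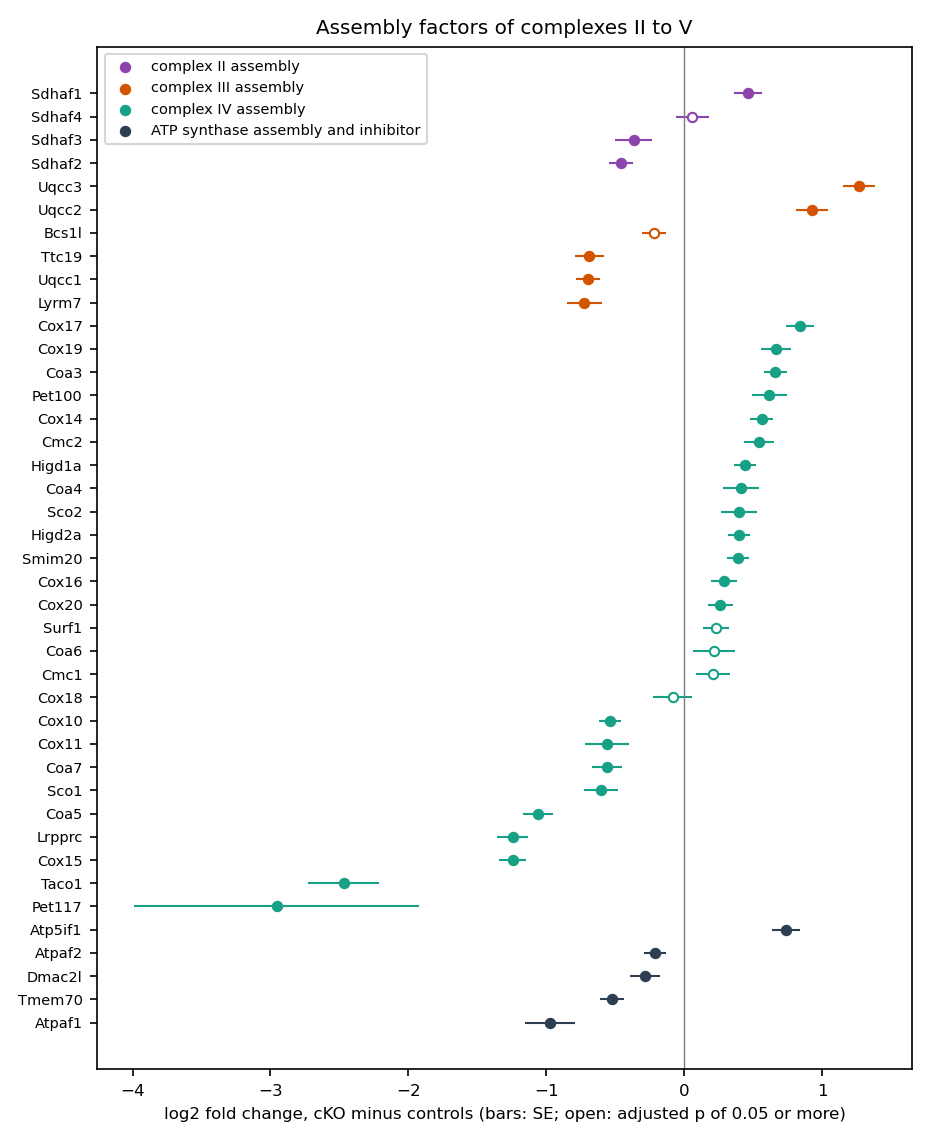
Log2 fold change (cKO minus controls) with SE of 41 genes that assemble or inhibit complexes II to V, grouped by complex, with open points for genes not called. The lowest are Pet117 (0 CPM in 3 of 4 cKO hearts and 0.771 CPM in the other, against 0.933 to 1.97 CPM in controls) and Taco1 at -2.47, and the highest is Uqcc3 at 1.27.

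Of 12 transcription regulators of respiratory genes 9 fell and none rose (median -0.71). Over all genes tested 26.5% were called lower and 25.6% higher. The median transcript length of the 12 was 4181.5 bases. The falls with the smallest p were those of the coactivator Ppargc1a (log2 -1.36), the receptors Esrrg (-2.05) and Esrrb (-1.23), and the fatty acid receptor Ppara (-2.77). These remained called with the transcript offset at -0.92, -1.68, -1.29 and -2.67. With that offset 10 of the 12 fell and none rose (median -0.45), beside 24.0% of all genes called lower. The 6 subunits of complexes III to V encoded by mitochondrial DNA included 2 that fell, mt-Co1 (log2 -0.59, SE 0.17; edgeR quasi-likelihood F-test, Benjamini-Hochberg adjusted p = 0.0116) and mt-Atp8 (-1.43, SE 0.30; edgeR adjusted p = 0.00592), and none that rose. mt-Cytb (-0.30), mt-Co2 (0.04), mt-Co3 (0.20) and mt-Atp6 (0.23) were not called, except that mt-Cytb was called lower without cKO replicate 2 (edgeR adjusted p = 0.0154), by DESeq2 (adjusted p = 0.0449) and with the offset (-0.51), and that mt-Co3 and mt-Atp6 were called higher with library totals alone (0.33 and 0.35). The mt-Co1 call was lost with the coding-length offset (-0.28, edgeR adjusted p = 0.169). mt-Co1 averaged 58035 ± 13314 CPM in cKO and 87221 ± 9556 CPM in control hearts (SD, n = 4 each). The groups overlapped, since cKO replicate 2 was at 77979 CPM and floxed replicate 1 at 77399 CPM. mt-Atp8, annotated with 204 bases, was at 119 ± 41.8 CPM in cKO and 321 ± 63.0 CPM in control hearts (SD, n = 4 each). mt-Atp6, with 681 bases, averaged 20959 and 17875 CPM. The part of read assignment between mitochondrial genes in the mt-Atp8 values was not tested.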

How the data were processed

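RNA of 8 hearts was isolated by TRIzol and sequenced as NEBNext Ultra RNA libraries, per the labels' protocols. As deposited by the authors, the values are estimated counts for each Ensembl gene, not normalized, with 71.95 to 76.34% of the values above 0 whole within 1e-06. Per the submitters' processing notes, the tools and builds include STAR (2.5.1b), DESeq2, mm10 and GRCm38. Which program counted, and with which annotation and strand setting, is not given in the sources used here.

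Counts were rounded. One model of the 3 groups, leaving 5 residual degrees of freedom, covered all 8 libraries in edgeR 4.0.16 (R 4.3.3) after filterByExpr and TMM scaling, with robust dispersion. Contrasts used edgeR's quasi-likelihood F-test, with p-values adjusted by Benjamini-Hochberg over all 15289 genes kept and a threshold of 0.05. Against both controls, cKO was compared with the average of the Cre and floxed means. The design was written for counts, and rounding was its stated step for expected counts.

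Symbols, positions and lengths come from GENCODE M21 (GRCm38), using the longest principal transcript. All 41 members were found and tested. The offset (mgcv 1.9.3) had lengths for 99.5% of the genes tested. Near-identical copies were found with BLAST 2.17.0 (95% identity over at least 150 bases), and exact permutation tests used 70 splits. Other scalings, filters, tools (DESeq2 1.42.0, limma voom 3.58.1), pooled controls, a replicate block and leaving out each library were tried. The code was tested on simulated counts. Members and lists were chosen with earlier results of these data known. Values in every library were given for complex II, the isoform pairs, the c ring genes, Cycs, Cyc1 and the 6 largest rises and falls among called members (5 genes fell). For each list, up to 4 rises and 4 falls with the smallest p were named, or all genes in lists of up to 6. Figures were drawn with matplotlib 3.10.9.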

Additional observations from a re-analysis of the deposited data

Results flagged for a closer look

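In 2 genes, cKO replicate 4 stood apart from the other cKO hearts. Sdhb had 831.8 CPM there, and 649.9 to 681.0 CPM in the other 3. Cox5a had 708.8 CPM there, and 619.8 to 629.5 CPM in the other 3. In each case the gap to the nearest heart, divided by the range of the 4, passed Dixon's 95% critical value for 4 samples, a level that chance passes in about 1 group of 20, and 41 genes were examined. Both genes were also above all controls in the other 3 cKO hearts, and without replicate 4 they were at log2 0.23 (Sdhb) and 0.40 (Cox5a), both still called by edgeR's quasi-likelihood test (adjusted p = 0.0466 and 0.00290).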

How the results depend on the processing

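Median-ratio scaling, limma voom, no robust fit, the stricter filter, leaving out mitochondrial-DNA transcripts and pooling the controls kept the sign and the call of all 41 genes in cKO minus controls. With library totals alone 3 genes were called lower against both controls, 3 against floxed and 2 against Cre, and with upper-quartile scaling 3 were called lower against floxed. These scalings moved the median of all genes by 0.12 and 0.11, and the members' median stood 0.61 above that of all genes under both. With the planned length and GC offset 19 genes were called against both controls (9 higher, 10 lower), 14 against floxed (7 higher, 7 lower) and 11 against Cre (5 higher, 6 lower). With coding length in its place, chosen after seeing the data, 19 were called (13 higher, 6 lower), 18 against floxed (12 higher) and 15 against Cre (10 higher). The offset turned 16 signs against both controls, 17 against floxed and 18 against Cre. Against both controls these were Sdhb (-0.21), Uqcrc1 (-0.27), Cyc1 (-0.17), Uqcrb (-0.27), Uqcr10 (-0.16), Cox4i1 (-0.026), Cox5a (-0.086), Cox7a1 (-0.27), Cox7c (-0.057), Cox8a (-0.21), Cox8b (-0.16), Atp5c1 (-0.16), Atp5j (-0.26), Atp5g2 (-0.53), Atp5g3 (-0.036) and Atp5k (-0.071). Among the 5 genes whose call differed between the control groups, those called with or without the offset whose sign turned were Uqcrb (-0.24) and Atp5g2 (-0.57) against floxed, and Sdhb (-0.18), Cyc1 (-0.14) and Atp5g2 (-0.49) against Cre. The coding-length offset turned 6 signs in each comparison, those of Uqcrc1 (-0.098), Cyc1 (-0.028), Cycs (-0.16), Cox8a (-0.15), Atp5j (-0.23) and Atp5g2 (-0.35) against both controls, and, by the same choice among those 5 genes, Atp5g2 against floxed (-0.38), and Cyc1 (-0.0023) and Atp5g2 (-0.32) against Cre. Outside the members the offset turned Uqcc2 (-0.14), Cox14 (-0.15), Atp5if1 (-0.033), Timm8b (-0.33) and Ccdc127 (0.27), and the coding-length offset Cox14 (-0.23) and Timm8b (-0.11). The cause was not tested.

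Leaving out 1 library at a time gave 32 to 36 called genes against both controls (27 to 31 higher, 5 lower), 23 to 33 against floxed (20 to 28 higher, 3 to 5 lower), 21 to 36 against Cre (18 to 31 higher, 2 to 5 lower) and 0 for Cre minus floxed. Where a control arm was left with 1 library, that library was assumed to vary like the other groups. Across the fits with 1 library left out, the number of all genes called against both controls also moved. A change in the member counts is therefore not particular to the members. The isoform differences ran from -0.664 to -0.329 (Cox6a2/Cox6a1), -0.359 to -0.21 (Cox7a1/Cox7a2) and 0.0581 to 0.15 (Cox8b/Cox8a). For libraries of the same replicate number, the correlations of their deviations from the group means were 0.133, -0.108, -0.105, -0.00167 and -0.0448. With 2 libraries in a control group the deviations mirror each other, so these values cannot show whether libraries were paired. The numbers are those of the sample titles, and the library names of the floxed hearts are numbered differently. Replicates 3 and 4 exist in cKO alone, so a replicate block sets those 2 hearts aside. It compares cKO replicates 1 and 2 with the controls and adjusts for no known pairing. With this block the counts were 27 higher and 5 lower against both controls, 25 and 5 against floxed and 26 and 4 against Cre. The isoform differences were then -0.125 (Cox6a2/Cox6a1), -0.382 (Cox7a1/Cox7a2) and 0.207 (Cox8b/Cox8a). With 2 libraries in each control group, small changes such as that of Cyc1 could be missed or lost.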
